A study of Mus musculus with 18 samples.

Results

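Histones are the proteins that package DNA, and their genes were examined here in mouse embryonic stem (ES) cells and mouse embryonic fibroblasts (MEFs) with and without TRIM28, also called KAP1. The genes were chosen by symbol: Hist followed by a cluster number, H2af, H3f and H1f, present in both RNA tables. Of 17818 symbols in the ES table and 17813 in the MEF table, 61 were taken, with 1 row per symbol, the transcript with the highest mean level. They comprise 8 linker H1 genes, 45 replication-dependent core genes (15 H2A, 15 H2B, 11 H3 and 4 H4) and 8 replacement genes. H1f0 was among them because its blank symbol was filled from the reference gene table by its RefSeq number.

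Core histones H2A, H2B, H3 and H4 form the nucleosome, and linker H1 binds the DNA between nucleosomes. Most core and H1 genes lie in clusters, are transcribed mainly in S phase and give short intronless mRNAs that end in a stem-loop instead of a poly(A) tail, although some copies can also be polyadenylated. Replacement histones such as H2A.Z, macroH2A and the H3f3 proteins are made from polyadenylated mRNAs throughout the cell cycle and enter chromatin outside replication. TRIM28 is a corepressor that KRAB zinc finger proteins recruit to DNA, where it brings in the enzyme that places the silencing mark H3K9me3.

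There were 4 groups, each of C57BL/6 background and each represented by 1 RNA library. ES3 cells, an ES line kept in medium with serum and LIF, were compared as wild type cultured for 4 days and as Trim28 knockout at 4 days after 4-OHT-inducible Cre. MEFs were compared as wild type cultured for 5 days and as knockout 5 days after the same kind of induction. Duplicate cultures were pooled before extraction, so a group has 1 value per gene, with no spread, no test and no p-value, and every comparison below is between 2 libraries. Values are RPKM, read numbers divided by the length of the transcript and by the size of the library. The depth of the libraries is unknown. The 2 tables were made separately, so levels of ES3 cells and MEFs stand side by side only. Fewer cells of a type and less RNA per cell cannot be told apart in such bulk samples.

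Trim28 itself read 1051 and 37.2 RPKM in wild-type and knockout ES3 cells, 3.54% of wild type, and 62.8 and 5.84 RPKM in MEFs, 9.29% of wild type. Listed markers of ES cells summed to 2488 RPKM in wild-type and 1282 RPKM in knockout ES3 cells, and 4 of 8 were at least 2-fold lower. Markers of primitive endoderm, an early extraembryonic lineage, summed to 28.5 and 1071 RPKM in the same libraries. All 8 passed 2-fold upwards, and none was at 0 in either library. The part of this shift in the histone values below was not tested. In MEFs the 8 fibroblast markers summed to 8562 RPKM (wild type) and 7852 RPKM (knockout). Of these, Fn1, Postn and Fbn1 were at least 2-fold lower in the knockout and 0 were higher. Of the 8 ES cell markers, 4 were at 0 in each MEF library and Nanog alone was measured, at 0.97 and 1.65 RPKM. The part of the fibroblast marker differences in the MEF values below was not tested. Fibroblast markers in ES3 cells summed to 231 and 461 RPKM, with 4 of the 6 measured past 2-fold upwards. Macrophage markers summed to 23.2 and 26.1 RPKM in ES3 cells and to 91.6 and 102.2 RPKM in MEFs. Most of each sum came from 1 gene. In ES3 cells 1 of 5 was measured, and the highest value was 23.1 and 25.1 RPKM. In MEFs 4 of 5 were measured, and the highest value was 75.6 and 84.4 RPKM.

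The promoters shown here show what the classes have in common and where they differ. They are the shared promoter of the divergent genes Hist1h2ag and Hist1h2bj, that of Hist1h1c, the member with the largest log2 ratio in ES3 cells, and that of Hist1h4i, the H4 gene with the largest log2 ratio there. Each is the 250 bases before the RefSeq start on GRCm38.p6, on the strand of the named gene. Capitals mark motifs on either strand. These are the CCAAT box, the TATA box spelled TATAAA, and the H1 box known from linker genes, which reads AAACACA.
Hist1h2bj, chr13:22042948-22043197, plus strand: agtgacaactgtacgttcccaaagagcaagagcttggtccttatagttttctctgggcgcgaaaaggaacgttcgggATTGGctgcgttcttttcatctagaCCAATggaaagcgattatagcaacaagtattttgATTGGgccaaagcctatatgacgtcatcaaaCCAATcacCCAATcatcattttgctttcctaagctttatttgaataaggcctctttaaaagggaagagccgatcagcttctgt
Hist1h1c, chr13:23738557-23738806, plus strand: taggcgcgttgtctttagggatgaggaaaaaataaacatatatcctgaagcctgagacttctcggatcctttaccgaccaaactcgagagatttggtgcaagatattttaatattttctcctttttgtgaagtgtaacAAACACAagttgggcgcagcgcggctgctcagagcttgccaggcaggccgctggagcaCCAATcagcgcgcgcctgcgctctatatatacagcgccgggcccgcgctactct
Hist1h4i, chr13:22041363-22041612, minus strand: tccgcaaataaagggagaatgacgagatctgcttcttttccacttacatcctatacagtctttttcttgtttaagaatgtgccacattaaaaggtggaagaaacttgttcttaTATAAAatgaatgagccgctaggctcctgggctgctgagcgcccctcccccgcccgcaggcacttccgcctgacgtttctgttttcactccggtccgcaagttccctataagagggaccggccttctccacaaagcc
The Hist1h2bj stretch holds 5 matches to CCAAT, and Hist1h2ag is read from the same bases in the other direction: its 250 bases run from chr13:22042950-22043199 on the minus strand. Hist1h1c has 1 CCAAT and 1 H1 box, and Hist1h4i has 1 TATAAA and no CCAAT. That TATAAA begins 137 bases before the start. Motifs were marked and counted by their letters alone, wherever they lay, so a match need not be a working box.

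Promoters in the RefSeq table (GRCm38.p6; 250 bases before to 50 after the start) were found for 66 of 73 member genes, 67 promoters in all, and were searched on both strands for motifs that do not overlap each other. CCAAT, the site of the factor NF-Y, was in 83.6% of them against 37.3% of 32784 other promoters. It was in all 16 H2A, all 15 H2B and all 10 H3 promoters but in 27.3% of the 11 H4 promoters. TATAAA was in 52.2% of member promoters and in 13.5% of the others, and among replacement genes in 14.3%. The octamer ATTTGCAT, bound by Oct factors, was in 43.8% of H2A and 46.7% of H2B promoters and in 1.69% of the others, and in no H1, H3 or H4 promoter. AAACACA was in 62.5% of H1 promoters and 7.17% of the others. H2A and H2B promoters carried near-equal shares of CCAAT and octamer letters. In 8 divergent pairs, however, the windows of the H2A and the H2B gene share 220 to 279 of 300 bases. The same letters were thus counted in both classes, so these shares are not independent. TATAAA was in 68.8% of H2A and 53.3% of H2B promoters.

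In ES3 cells the histone classes differed from each other. Every H2B and H4 gene had more RPKM in the knockout, and some of them, with a pair of H1 genes and 1 replacement gene, passed 2-fold. H2A genes were nearly level apart from 1, H3 genes had up to 1.84 times the wild-type value, and the most abundant replacement gene had less RPKM without passing 2-fold. A gene counted as measured if either library gave it 1 RPKM or more, and as higher or lower at 2-fold on the scale log2((knockout + 1)/(wild type + 1)). That pseudocount of 1 RPKM understates the change of genes at low levels, so the plain quotient of knockout to wild-type RPKM is given too. Of 53 measured members, 11 were higher (20.8%) and 0 lower, where 12.5% of 12024 measured genes were higher and 3.18% lower. The median log2 ratio was 0.43 for the members and 0.080 for all genes. Of the 53, 7 were measured only through the knockout and so had to be higher there, and 4 of them passed 2-fold. Of the 46 at 1 RPKM or more in both libraries, 7 were higher. Over all 61 members with no filter the median was 0.34, and 44 had more RPKM in the knockout. The shares of all genes at 1 RPKM or more in both libraries, or with no filter, are not given here. The counts of 7 and 44 thus have no like background beside them. Among measured genes, 37 of the 53 members and 55.4% of all genes had a ratio above 0. Non-member genes that span up to 2 kb, as 44 of the measured members do, had a median of -0.034 and were higher in 14.4%.

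**Figure D1:**
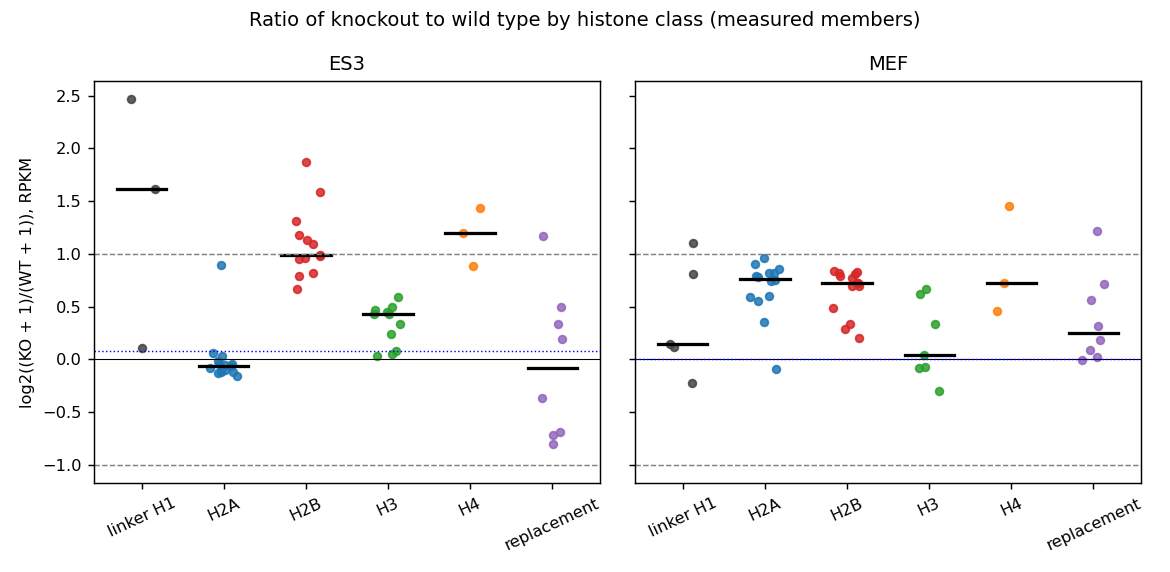
Log2((knockout + 1)/(wild type + 1)) of RPKM for each measured histone gene (points; 53 in ES3 cells, 51 in MEFs), by class, with the class median (thick bar), the 2-fold limits (dashed) and the median of all measured genes (dotted). In ES3 cells the H2A genes other than Hist3h2a lie near 0 and all 13 H2B genes lie at 0.66 or above, whereas in MEFs the medians of these classes are 0.77 and 0.72.

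Linker H1 genes were at low levels in ES3 cells apart from 3. Hist1h1c, a cluster H1 gene, read 0.54 RPKM (wild type) and 7.49 RPKM (knockout), a quotient of 14.0 and a log2 ratio of 2.47. It was measured only through the knockout. H1f0, the H1 known to accumulate in differentiating cells and to be polyadenylated, read 7.92 and 26.3 RPKM, a quotient of 3.33 and a log2 ratio of 1.62. H1fx, a divergent H1 outside the clusters, read 24.0 and 25.9 RPKM. The other 5 H1 genes stayed under 1 RPKM in both libraries: Hist1h1e read 0.04 and 0.31 RPKM, Hist1h1a 0.21 and 0.60 RPKM, Hist1h1b 0.23 and 0.28 RPKM, and the testis gene Hist1h1t was listed at 0 in both. The class median of the 3 measured genes was 1.62, and over all 8 genes with no filter it was 0.29.

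H2A genes were the most abundant core genes in wild-type ES3 cells and had nearly the same values in both libraries. Hist1h2af read 14.1 and 13.6 RPKM, Hist1h2ad 12.6 and 11.2 RPKM, and Hist1h2ah 12.2 and 11.1 RPKM. All 11 H2A members of the first cluster were slightly lower in the knockout, with quotients from 0.88 to 0.99. These copies are close to identical in sequence, and how reads that fit several copies were counted is not given in the sources used here, so their values are not independent. The 4 H2A transcripts of the second cluster, on chromosome 3, had quotients from 0.96 to 1.23. Hist3h2a, the H2A gene on chromosome 11, stood apart with 1.08 RPKM (wild type) and 2.85 RPKM (knockout), a quotient of 2.65. None of 15 H2A genes was past 2-fold, and the median log2 ratio was -0.064.

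H2B genes had low levels in wild-type ES3 cells and more RPKM in the knockout in all 15 cases, with quotients from 1.98 to 11.9 and a median of 3.14. By RefSeq transcript all 18 had more RPKM in the knockout, with a minimum of 1.30 (NM_175666, a copy that the symbol rule leaves out, at 0.49 and 0.63 RPKM) and a median of 2.96. Of the 13 measured, 6 passed 2-fold and the median log2 ratio was 0.99; 6 of the 13 were measured only through the knockout, and of the 7 at 1 RPKM or more in both libraries 3 passed. The best covered was Hist1h2bc (NM_023422, listed under the symbol Hist2h2bb in the ES table), at 2.17 and 10.6 RPKM, a quotient of 4.90. Hist1h2bj read 0.97 and 3.88 RPKM, Hist1h2bk 1.26 and 3.94 RPKM, and Hist1h2bl 1.11 and 3.50 RPKM. Hist1h2bh, at 1.37 and 3.71 RPKM, lay just inside 2-fold. On chromosome 11, Hist3h2ba read 0.24 and 2.72 RPKM, a quotient of 11.5, and Hist3h2bb-ps 0.13 and 1.56 RPKM. Hist1h2ba, known as a testis H2B, read 0.56 and 2.08 RPKM.

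H4 genes also had more RPKM in the ES3 knockout. Hist1h4i (NM_175656, listed as Hist2h4) read 3.41 RPKM (wild type) and 10.9 RPKM (knockout), a quotient of 3.21 and a log2 ratio of 1.44. Hist1h4k read 1.19 and 4.05 RPKM and Hist1h4b 2.06 and 4.63 RPKM. Both deposited tables spread few H4 symbols over many copies: Hist2h4 stands for 7 transcripts in the ES table and 5 in the MEF table. Counted by RefSeq transcript, all 12 H4 transcripts had more RPKM in the ES3 knockout, with quotients from 1.18 to 3.39, and 5 of the 11 measured passed 2-fold. The H4 transcript of the chromosome 3 cluster (NM_033596) had the lowest quotient, at 1.12 and 1.32 RPKM, and Hist4h4, on chromosome 6, had the lowest level, at 0.12 and 0.22 RPKM.

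H3 genes of the 2 large clusters gave different values. The 9 Hist1h3 genes on chromosome 13 all had more RPKM in the ES3 knockout, with quotients from 1.07 to 1.84, whereas the 3 Hist2h3 transcripts on chromosome 3 had quotients from 1.03 to 1.08. Hist1h3d, the largest, read 1.5 and 2.75 RPKM, a log2 ratio of 0.59, and Hist2h3b read 2.25 and 2.44 RPKM. Hist1h3g read 1.87 and 2.90 RPKM, and Hist1h3a, Hist1h3c and Hist1h3e had log2 ratios of 0.50, 0.47 and 0.43. None of the 11 H3 genes reached 2-fold, and the median log2 ratio was 0.43.

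Replacement genes made up most of the histone RPKM of ES3 cells and split in direction. Whether polyadenylated RNA was selected is not given in the sources used here. If it was, core genes may be read only in part. Shares by class and ratios of core genes thus need not be those of all histone mRNA. H2afz, one of the pair of genes for H2A.Z, was the most abundant histone gene, at 381 RPKM (wild type) and 231 RPKM (knockout), a log2 ratio of -0.72. H2afv, the other H2A.Z gene, read 64.4 and 49.9 RPKM. H3f3a and H3f3b encode the same replacement H3 protein, and their values went opposite ways: H3f3a read 42.7 and 26.1 RPKM, a log2 ratio of -0.69, and H3f3b 89.4 and 126.7 RPKM, a log2 ratio of 0.50. The macroH2A genes, whose products carry a large extra domain and are enriched on silent chromatin, did so too. H2afy (NM_001159513, its transcript of highest mean there) read 19.1 and 10.5 RPKM, a log2 ratio of -0.80, and H2afy2 read 4.21 and 10.7 RPKM, a log2 ratio of 1.17 that was the only one past 2-fold. H2afx, phosphorylated at DNA breaks, read 81.4 and 93.2 RPKM, and H2afj read 27.3 and 34.7 RPKM.

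**Figure D2:**
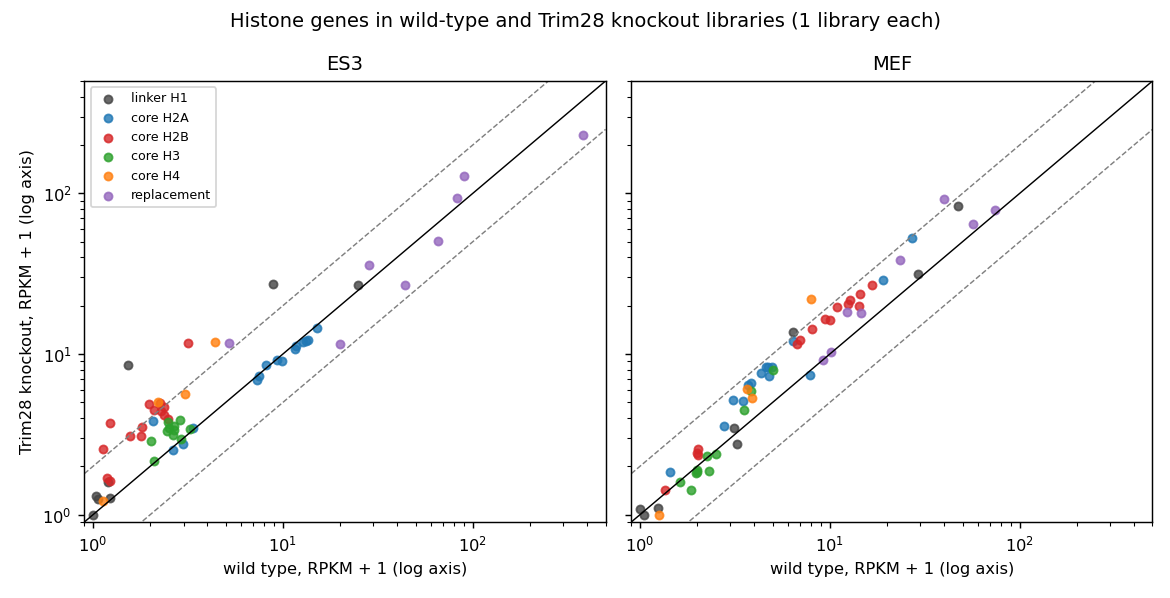
RPKM + 1 of all 61 histone genes in the wild-type (x axis) and knockout library (y axis) of ES3 cells and of MEFs, both on log axes, with equality (solid) and 2-fold limits (dashed). In ES3 cells H2B and H4 genes sit above the diagonal at low levels and H2afz is the point at the top right; in MEFs most classes lie above it.

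The histone RPKM, summed over 74 distinct reference genes, differed more in its make-up than in its total between the ES3 libraries. The sum was 921 RPKM in wild-type and 891 RPKM in knockout ES3 cells. Replacement genes took 77.2% of it in wild type and 65.7% in the knockout. H2B took 1.71% and 5.79%, H4 2.25% and 5.48%, linker H1 3.58% and 6.87%, H3 2.06% and 2.97%, and H2A 13.2% in both. In MEFs the sum was 664 RPKM (wild type) and 1068 RPKM (knockout), with replacement genes at 35.3% and 30.3% and H2B at 28.4% and 31.3%. H2B was thus the largest core class in both MEF libraries, and H2A was the largest in both ES3 libraries.

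**Figure D3:**
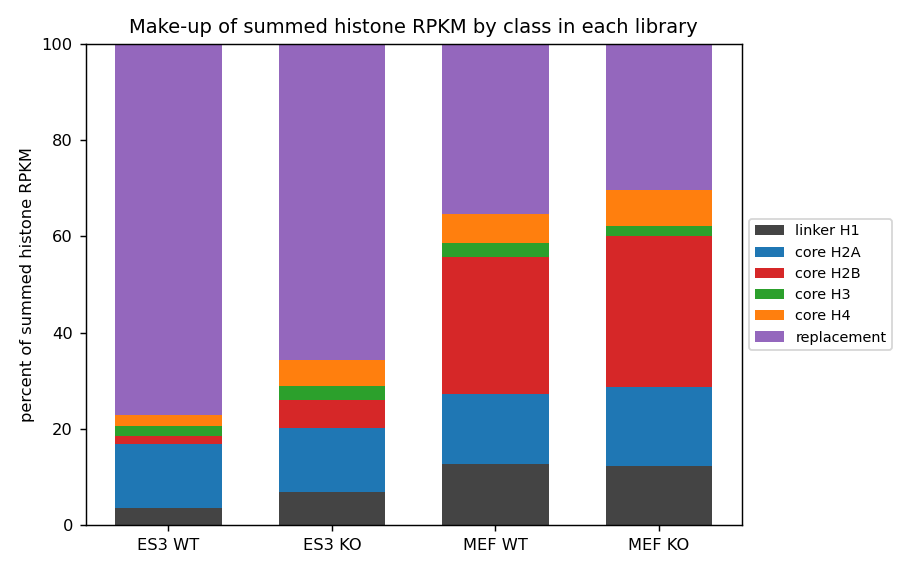
Percent of the summed histone RPKM taken by each class in the 4 libraries (stacked bars, each adding to 100; 1 library per bar). Replacement genes fill 77.2% of the ES3 wild-type bar and 65.7% of the ES3 knockout bar, and H2B fills 28.4% and 31.3% of the MEF bars.

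H2A and H2B genes that share a promoter had different ratios in ES3 cells. Among the member genes with usable coordinates, 10 pairs of an H2A and an H2B gene start 185 to 306 bases apart on opposite strands, and in 8 of them the 300-base promoter windows overlap by 220 to 279 bases. In ES3 cells the H2B ratio was above that of its H2A partner in 10 of 10 pairs, by a median of 1.07 on the log2 scale (range 0.55 to 2.00). The quotients were 0.88 to 0.96 for the H2A genes and 2.32 to 4.90 for the H2B genes. These pairs were not filtered by level. Their H2B genes stood at 0.19 to 2.17 RPKM in wild type, and Hist2h2be, at 0.19 and 0.69 RPKM, was not measured in ES3 cells. At the promoter printed above, Hist1h2ag read 10.6 RPKM (wild type) and 9.72 RPKM (knockout), and Hist1h2bj 0.97 and 3.88 RPKM. At another pair, Hist1h2ac read 1.98 and 1.74 RPKM and Hist1h2bc 2.17 and 10.6 RPKM. A further pair outside the symbol rule, Hist1h2ao and Hist1h2bq, read 29.8 and 22.4 RPKM and 0.32 and 1.03 RPKM. Not among the 10 are the members Hist3h2a and Hist3h2bb-ps, side by side on opposite strands of chromosome 11. The latter was not matched to the reference. Their ES3 quotients were 2.65 and 11.9, and their log2 ratios 0.89 and 1.18. That H2A quotient lay above the range of the 10 pairs, and the difference of log2 ratios below it. The 10 pairs hold copies close to identical to each other, so they are not independent measurements.

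In MEFs the quotients of the same pairs lay close together. The H2B quotients were 1.30 to 1.89 and the H2A quotients 1.44 to 2.04, and the H2B quotient was above its partner's in 1 of 10 pairs. On the scale with the pseudocount it was above in 4 of 10, with a median difference of -0.024, which is 0.14 with a pseudocount of 5 RPKM. That count depended on the scale: it was 9 of 10 with a pseudocount of 5 RPKM, 1 with 0.1 RPKM and 2 when rescaled, so no order of the 2 classes can be given for MEFs. The order of levels also differed: H2B read above H2A in 1 of 10 pairs in wild-type ES3 cells and in 9 of 10 in wild-type MEFs. Hist1h2ag and Hist1h2bj, for example, read 2.85 and 15.7 RPKM in wild-type MEFs and 5.60 and 26.0 RPKM in knockout MEFs.

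**Figure D4:**
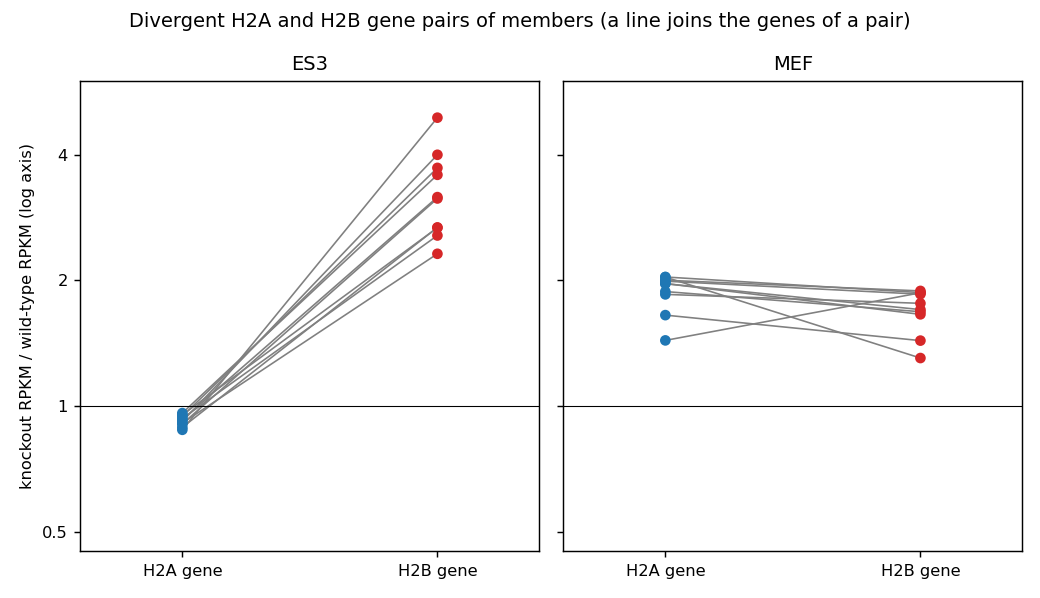
Quotient of knockout to wild-type RPKM (log axis) for the H2A and the H2B gene of 10 divergent pairs with usable coordinates. A line joins the genes of a pair, in ES3 cells and in MEFs, with 1 library per condition. In ES3 cells H2A quotients lie at 0.88 to 0.96 and H2B quotients at 2.32 to 4.90; in MEFs both lie between 1.30 and 2.04.

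In MEFs most histone genes read higher in the knockout, but few passed 2-fold and short genes in general did the same. Of 51 measured members, 3 were higher (5.88%) and 0 lower, where 0.981% of 10805 measured genes were higher and 4.84% lower. A ratio above 0 was found for 45 of the 51 members and 50.3% of all measured genes. The members' median log2 ratio was 0.66, and that of all genes was 0.0045. The 406 non-member genes that span up to 2 kb had a median of 0.51 and were higher in 8.13%, and 42 of the measured members have such spans. Centred on genes of like span, the members' median was 0.19 and 0 passed 2-fold. The RPKM of the 2 MEF libraries also summed to different totals, 308887 and 369572. Rescaling both to the same total moved the median of all genes by -0.25, and 1 member then passed 2-fold. That total lay above both sums, so the pseudocount of 1 also weighed less after rescaling. Whether span or library scaling accounts for the MEF values was not tested.

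The 3 members past 2-fold in MEFs were 1 linker, 1 replacement and 1 H4 gene. H1fx read 5.41 RPKM (wild type) and 12.8 RPKM (knockout), a quotient of 2.37. H2afj, an H2A replacement gene, read 38.7 and 91.6 RPKM, also a quotient of 2.37. Hist1h4h (NM_153173, listed as Hist2h4) read 7.01 and 20.9 RPKM, a quotient of 2.99. By RefSeq transcript, 5 of 66 measured were higher, beside 0.827% of all transcripts, and 14 of 68 in ES3 cells, beside 11.7%; 0 were lower in either, beside 4.46% and 3.0%.

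Core classes other than H3 had like medians in MEFs. H2A genes had a median log2 ratio of 0.77 (14 measured, 0 past 2-fold), H2B genes 0.72 (14 measured, 0 past 2-fold) and H4 genes 0.72 (3 measured). The most abundant were Hist1h2bc at 71.4 RPKM (wild type) and 133.4 RPKM (knockout), Hist2h2aa1 (NM_013549) at 25.9 and 51.5 RPKM, and Hist3h2a at 18.2 and 28.1 RPKM. Among H2A genes Hist2h2ac read 5.41 and 11.0 RPKM and Hist1h2ai 3.60 and 7.34 RPKM. Among H2B genes Hist1h2bf read 11.7 and 20.7 RPKM, Hist1h2bm 8.40 and 15.6 RPKM, and Hist1h2bn 7.10 and 13.4 RPKM. Hist1h2bc and Hist1h1c were the core and linker genes of highest level in MEFs, and they read 2.17 and 0.54 RPKM in wild-type ES3 cells. H3 genes had a median of 0.042 (7 measured), which turned to -0.15 on rescaling and -0.49 when centred by span. Again the clusters differed: the 9 Hist1h3 genes had quotients from 0.50 to 1.05, with Hist1h3b at 1.32 and 0.88 RPKM, and the 3 Hist2h3 transcripts had quotients from 1.36 to 1.73, with Hist2h3c1 at 2.83 and 4.88 RPKM. The Hist1h3 genes stood at 1.53 RPKM or less in both MEF libraries, close to the limit for a measured gene.

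Other H1 and replacement genes differed less in MEFs. Hist1h1c read 46.4 RPKM (wild type) and 82.1 RPKM (knockout), a log2 ratio of 0.81, H1f0 28.2 and 30.7 RPKM, Hist1h1d 2.12 and 2.45 RPKM, and Hist1h1e 2.24 and 1.78 RPKM. The median of the 5 measured H1 genes was 0.15, which turned to -0.042 on rescaling and -0.28 when centred by span. H2afx read 22.6 and 37.8 RPKM, H2afv 11.3 and 17.1 RPKM, H2afz 56.0 and 63.8 RPKM, H2afy (NM_001159515, its transcript of highest mean in MEFs) 13.6 and 17.1 RPKM, and H2afy2 9.14 and 9.29 RPKM. H3f3a read 8.25 and 8.21 RPKM and H3f3b 72.8 and 77.3 RPKM. H2afy2 and H1f0, at 2.55 and 3.33 times wild type in the ES3 knockout, thus stood at 1.02 and 1.09 times in the MEF knockout. The difference between the cell types has no test.

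Most members lie in 4 blocks (deposited mm9 coordinates): chr13:21806868-22135671 with 17 histone genes, chr13:23622919-24026720 with 31, chr3:96023839-96073027 with 7, and chr11:58762413-58769109 with 2. The median log2 ratios of their measured members in ES3 cells were 0.73, 0.54, 0.05 and 1.24, and in MEFs 0.79, 0.63, 0.69 and 0.44. These counts and medians cover only genes whose coordinates fit the reference. Left out, for example, were Hist3h2bb-ps in the chromosome 11 block and Hist1h4n in the first block. Their log2 ratios were 1.18 and 1.13 in ES3 cells and 0.33 and 0.31 in MEFs. The chromosome 3 block was thus near level in ES3 cells; it holds H2A and H3 genes and 1 gene each of H2B and H4. Few other genes lie inside the blocks. In ES3 cells Zfp184, which encodes a zinc finger protein, read 3.74 and 2.86 RPKM and Prss16, a thymus protease, 0.57 and 1.13 RPKM. In MEFs Hfe, a regulator of iron uptake, read 0.96 and 1.17 RPKM. None of them passed 2-fold.

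No TRIM28 peak of wild-type ES3 cells lay within 20 kb of a histone gene start. The starts of 67 member genes were set against those of 17749 other genes, with 1 deposited list per condition. Within 20 kb, 0 of 67 had a peak called in wild type over input (6.97% of other starts), and 0 had one called in wild type over knockout (4.95%). The nearest such peaks stood at a median of 376 kb, against 211 kb for other genes, and no peak of any TRIM28 list lay inside the 4 blocks. Of the 67 starts, 57 lie in these blocks and neighbours share their nearest peaks. The starts are thus not independent, and the differences have no test. In the list called in knockout cells over input, 2 of 67 starts (2.99%, against 4.86% of other starts) had a peak within 20 kb. These were H2afv and H2afx, whose peaks lay 2710 and 9351 bases from the start. H2afy2 spanned 2 peaks of that list, and the nearest peak of wild type over input lay 244893 bases from its start. Peaks called in knockout cells need not mark TRIM28 binding. The share of other genes that span such a peak is not given here.

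H3K9me3 regions lay within 20 kb of a smaller share of histone starts than of other starts in both lists, with no test of the difference. In wild-type ES3 cells 13 of 67 starts (19.4%) had one within 20 kb, against 24.4% of other starts, and in the knockout list 8 (11.9%), against 24.3%. Neighbouring genes share regions, so these starts are not independent. Regions listed as wild type only were near 10 starts (14.9%, against 17.2%). They included 4 regions inside the larger chromosome 13 block, the nearest of which lay 9703 bases from the start of Hist1h4d and 16890 bases from that of Hist1h2ad. The same block held 5 regions in the knockout list, the nearest to a start 9680 bases from that of Hist1h2be, and none lay in the chromosome 3 or chromosome 11 block in either list. H2afj, H2afv, H2afz, Hist2h3b and H1fx had a region within 20 kb in both lists. At 50 kb the wild-type share was 67.2%, against 47.3% of others, and in the knockout list it was 41.8% against 46.7%. At 100 kb the knockout share was 86.6% against 70.0%, so in both lists the order of the 2 shares depended on the window.

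Genes whose products make histone mRNA mostly read lower in the ES3 knockout. Of a list of transcription and 3′ processing factors, 30 were measured in ES3 cells, of which 0 passed 2-fold either way, and 5 read higher; the median was -0.35. The largest differences were Pou2f1, which encodes an octamer-binding factor, at 3.97 and 1.93 RPKM, Srrt at 44.1 and 26.9 RPKM and Cpsf1, a subunit of the cleavage complex, at 40.9 and 25.3 RPKM. Slbp, which encodes the stem-loop binding protein and was chosen after its values were seen, read 37.7 and 29.0 RPKM. In MEFs 26 were measured, with 0 past 2-fold and a median of 0.00032. Npat, the S-phase coactivator of histone genes, read 2.79 and 0.90 RPKM there, a log2 ratio of -0.99, Snrpg 44.4 and 69.5 RPKM, and Snrpb 113.3 and 164.3 RPKM.

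DNA replication genes, which are expressed in the same phase of the cell cycle, were mostly lower in the ES3 knockout. Of 33 measured, 3 read higher, 0 passed 2-fold higher and 1 passed 2-fold lower; the median was -0.42. The one was Ccne1, an activator of the start of S phase, with a log2 ratio of -1.05, followed by Cdt1, a licensing factor, at -0.99 and Pold1, a polymerase subunit, at -0.88. In MEFs the median of 32 measured was 0.058, and 1 passed 2-fold lower, Pola1 at -1.04; Pole stood at -0.74 and Ccne2 at -0.63. Centred on genes of like span, Pola1 stood at -0.57, inside 2-fold, Pole at -0.41 and Ccne2 at -0.73. Histone chaperones and exchange factors had a median of -0.35 in ES3 cells (31 measured, 0 past 2-fold) and 0.0045 in MEFs (31 measured, 0 higher and 1 lower). In ES3 cells Rbbp7 stood at 0.84 and Vps72, a subunit of the complex that deposits H2A.Z, at -0.81. Atrx, which acts with the replacement H3 chaperone Daxx, stood at -0.78. In MEFs Atrx was the one gene past 2-fold at -1.65, followed by Ep400 at -0.87 and Cenpa, the centromeric H3, at 0.82. Centred by span, Atrx stood at -1.20 and Ep400 at -0.35.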

How the data were processed

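Each RNA library came from duplicates pooled before extraction, per the labels' protocols. The tool is Bowtie and the build mm9, per the submitters' processing notes. Not given in the sources used here: their versions, the way reads were counted, the rule for reads that fit several places and any poly(A) selection. As deposited, the tables hold RPKM per RefSeq transcript and a ratio of knockout to wild type by the authors, used only as a check. H3K9me3 regions were deposited as positions, and TRIM28 peaks with a score of unstated scale. Depth is unknown. The ES table's columns, named WT and KO, were read as the ES3 libraries, since the other ES line is labelled KD. Python 3.11.15, numpy 2.4.6 and pandas 2.3.3 computed log2((KO + 1)/(WT + 1)) over all symbols; the script was tested on simulated data. The members and lists were chosen with earlier results of these data known.

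Of 82 histone transcripts in both tables, 12 carry different symbols in the 2 tables. Members were therefore counted by symbol, as the rule asks, and single genes described by RefSeq number with the name the reference gives. Named were Trim28, all linker and replacement members, in each core class the 3 members of largest ratio and of highest level per table, the 3 list genes of largest ratio, and up to 10 members near a region; other members were named after their values were seen. Protein sequences were not used here. Of the series' 18 libraries, 4 RNA libraries and 6 region lists were used; H3K27ac, input and Rex1GFP libraries were not analysed here. Other pseudocounts, filters, scalings, folds, windows and ways to count copies were tried as alternatives.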

Additional observations from a re-analysis of the deposited data

Results flagged for a closer look

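H2afv and H2afy had log2 ratios of opposite sign in the 2 cell types, each at 0.25 or more in size. H2afv stood at -0.36 in ES3 cells and 0.56 in MEFs. H2afy stood at -0.80 in ES3 cells and 0.31 in MEFs. With 1 library per condition the difference was not tested.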

How the results depend on the processing

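The ES3 count of 11 higher members was 19 with a pseudocount of 0.1 RPKM and 3 with 5 RPKM. It was 5 with a filter at 5 RPKM, 4 at 3-fold and 19 when rescaled. The ES3 median of all members was -0.048 with that filter. Rescaling brought both libraries to the same total, above their own sums (318250 and 306318 RPKM in ES3 cells), before the pseudocount of 1 was added. The pseudocount thus weighed less than in the main setting. The ES3 median of all genes moved by 0.064 on rescaling, whereas Hist1h1c went from 2.47 to 3.24. The count of 19 is therefore not that of equal totals alone. The MEF count of 3 was 5 with a pseudocount of 0.1 RPKM, 1 rescaled, 0 centred by span and 0 at 3-fold. By RefSeq transcript it was 5, a choice made after seeing the data. In both cell types the share of all genes is not given under these settings, save by RefSeq transcript. The other counts thus have no background beside them. MEF medians that changed sign were linker H1 (-0.042 rescaled, -0.28 by span), H3 (-0.15 and -0.49) and the pair difference (0.14 with a pseudocount of 5 RPKM, also chosen after seeing the data). For windows of 10, 50 and 100 kb, 4, 45 and 64 of 67 starts were near H3K9me3 regions in wild type. These were 5.97%, 67.2% and 95.5%, against 13.6%, 47.3% and 69.2% of other starts. The counts for wild type only were 4, 33 and 47 (5.97%, 49.3% and 70.1%, against 8.76%, 36.1% and 56.9%). In the knockout they were 4, 28 and 58 (5.97%, 41.8% and 86.6%, against 14.2%, 46.7% and 70.0%). Within 100 kb, 6 had a TRIM28 peak of wild type over input (8.96%, against 29.4%). For wild type over knockout it was 4 (5.97%, against 22.2%). For the knockout list there were 10 within 50 kb (14.9%, against 11.7%) and 20 within 100 kb (29.9%, against 21.5%). Among its peaks of higher score there was 1 within 20 kb (1.49%, against 2.38%). Beyond the fewer genes tested under a filter or fold and the smaller weight of the pseudocount on rescaling, the cause was not tested. Over all alternatives, single genes included, 1107 values moved by less than 1.5 times, 49 by more, and 6 medians changed sign by the limits used. No paired analysis was possible because each group is 1 library. Unknown depth limits values under 1 RPKM.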
